A study of Rattus norvegicus with 8 samples.

Results

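The interleukin-1 (IL-1) system and Tnf were examined in the dentate gyrus of rats after status epilepticus (SE), as 9 genes named in the array's own gene name column: Il1a, Il1b, Il18, Tnf, Il1rn, Il1r1, Il1r2, Il1rap and Il1rl1. The array held 35250 gene names on 43379 non-control spots, and the 9 genes were read by 14 probes on 32 spots. All 8 rats were adult ovariectomized (OVX) female Sprague-Dawley rats in which kainic acid, an agonist of a class of glutamate receptors, had induced SE. The COS group (castrated, oil, seizured, n = 4) received oil and the CES group (castrated, estradiol, seizured, n = 4) received 17β-estradiol (E2). The sample records give 4 doses of 2 µg of E2, labelled EB (estradiol benzoate), before and after SE. They also give 16 mg/kg of kainic acid and 5 h of SE ended by pentobarbital. The methods of the study likewise name the benzoate, but as given only before SE. They describe a lower dose of kainic acid, diazepam, and 2 different times of tissue collection. The interval from SE to collection is therefore not settled here. The rats had no ovaries, so CES is a replacement group and neither group stands for intact females. No rat without SE was analysed here, so the values compare E2 with oil after SE and say nothing of the level before SE.

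IL-1α and IL-1β, encoded by Il1a and Il1b, bind the receptor Il1r1, which signals together with the accessory protein Il1rap. Il1rn encodes the receptor antagonist, which occupies Il1r1 without signalling, and Il1r2 encodes a decoy receptor that binds IL-1 without signalling. Il18 encodes a related cytokine with receptors of its own, Il1rl1 encodes the receptor of IL-33 and shares Il1rap, and Tnf encodes tumor necrosis factor. Caspase-1 cleaves the precursors of IL-1β and IL-18. In the brain these cytokines are made mainly by microglia and infiltrating myeloid cells, and they are known to be induced by seizures and to alter neuronal excitability.

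Each probe is a DNA strand of 60 bases, and which part of a transcript it matches bears on what its signal stands for. Printed here is 1 probe for each gene described below except Il1b and Il1r1, all taken from general knowledge of the encoded proteins to lie in coding sequence, since no annotation of this build was used, in lower case and 5′ to 3′, with the array's own rn4 positions. Il1r2 (chr9:39316654-39319494), Il1rl1 (chr9:39619275-39620742) and the dimmer Il1rn probe (chr3:2609497-2610531) are spread over more than 60 bases of the genome and so cross a splice junction. The others lie in uninterrupted stretches, Il1rap at chr11:76113640-76113699, Il18 at chr8:53943005-53943064, Tnf at chr20:3662706-3662765 and Il1a at chr3:116914826-116914885.
Il1rn: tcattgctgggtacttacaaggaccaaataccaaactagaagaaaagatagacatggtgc
Il1r2: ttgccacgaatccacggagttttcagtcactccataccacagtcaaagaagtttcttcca
Il1rap: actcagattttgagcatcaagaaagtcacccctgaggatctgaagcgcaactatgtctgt
Il18: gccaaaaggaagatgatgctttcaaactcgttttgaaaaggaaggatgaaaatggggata
Il1rl1: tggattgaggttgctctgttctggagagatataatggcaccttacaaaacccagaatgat
Tnf: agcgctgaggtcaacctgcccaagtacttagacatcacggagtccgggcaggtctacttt
Il1a: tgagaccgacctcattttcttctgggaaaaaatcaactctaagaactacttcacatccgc
The Il1rl1 sequence belongs to the second of the gene's array probes and is the entry of the longer transcript, which encodes the membrane receptor. Il1b was read by a probe on 10 spots (chr3:116964465-116964524) and by another on 1 spot (chr3:116964716-116964775), and Tnf by a single probe on 10 spots.

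Detection came first, because several of these genes were dim. A spot counts as well above background when the scanner software marks it so. Il18 and Il1rap were well above background in 4 of 4 COS and 4 of 4 CES rats. Il1rn was in 4 COS and 2 CES rats, Il1r2 in 4 COS and 1 CES rat, and Il1b in 3 COS and 2 CES rats. Tnf was detected in 2 rats of each group, Il1rl1 in 1 COS and 2 CES rats, Il1a in 0 COS and 2 CES rats, and Il1r1, the signalling receptor, in no rat of either group. By rat, 4 to 7 of the 9 genes were well above background in COS and 2 to 7 in CES. The rats labelled with Cy3 (numbers 1 and 3 of each group) had 2 to 5 of the 9 detected and those labelled with Cy5 had 6 or 7, and over all gene names the Cy3 rats had 15037 to 17980 detected against 19168 to 22018 in the Cy5 rats. Both dyes are held equally by the groups. A second filter decided what was tested: a spot was valid at a foreground of 2 times the local background or more, and a gene entered the test with the spots valid in all 8 rats. This kept 21372 genes, among them 7 of the 9, and left out Il1r1 and Tnf.

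Of the 7 genes tested, Il1rn, Il1r2, Il1b, Il1rap and Il18 fell in CES, none rose, and Il1a and Il1rl1 passed no threshold (limma, two-sided, adjusted p under 0.05 over all genes). The background is high: limma called 34.1% of all 21372 genes, 28.3% lower and 5.79% higher in CES. For all 5 genes the lowest COS rat was above the highest CES rat, a separation shown in the same direction by 19.8% of all genes and in the opposite one by 1.61%. The median difference over all genes was -0.25 on the log2 scale, so the differences of these 5 genes are also given relative to it. Other differences are given unshifted unless stated. That median and the split of calls depend on the scaling, with 83% of calls lower in CES here but 38.4% after loess and Aquantile normalization, 42.1% after quantile normalization and 33.9% when each channel was scaled by its median over spots valid in every rat. The 5 genes were lower in CES under every scaling tried. In tissue RNA, fewer cells of a type and less RNA per cell cannot be told apart.

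**Figure D1:**
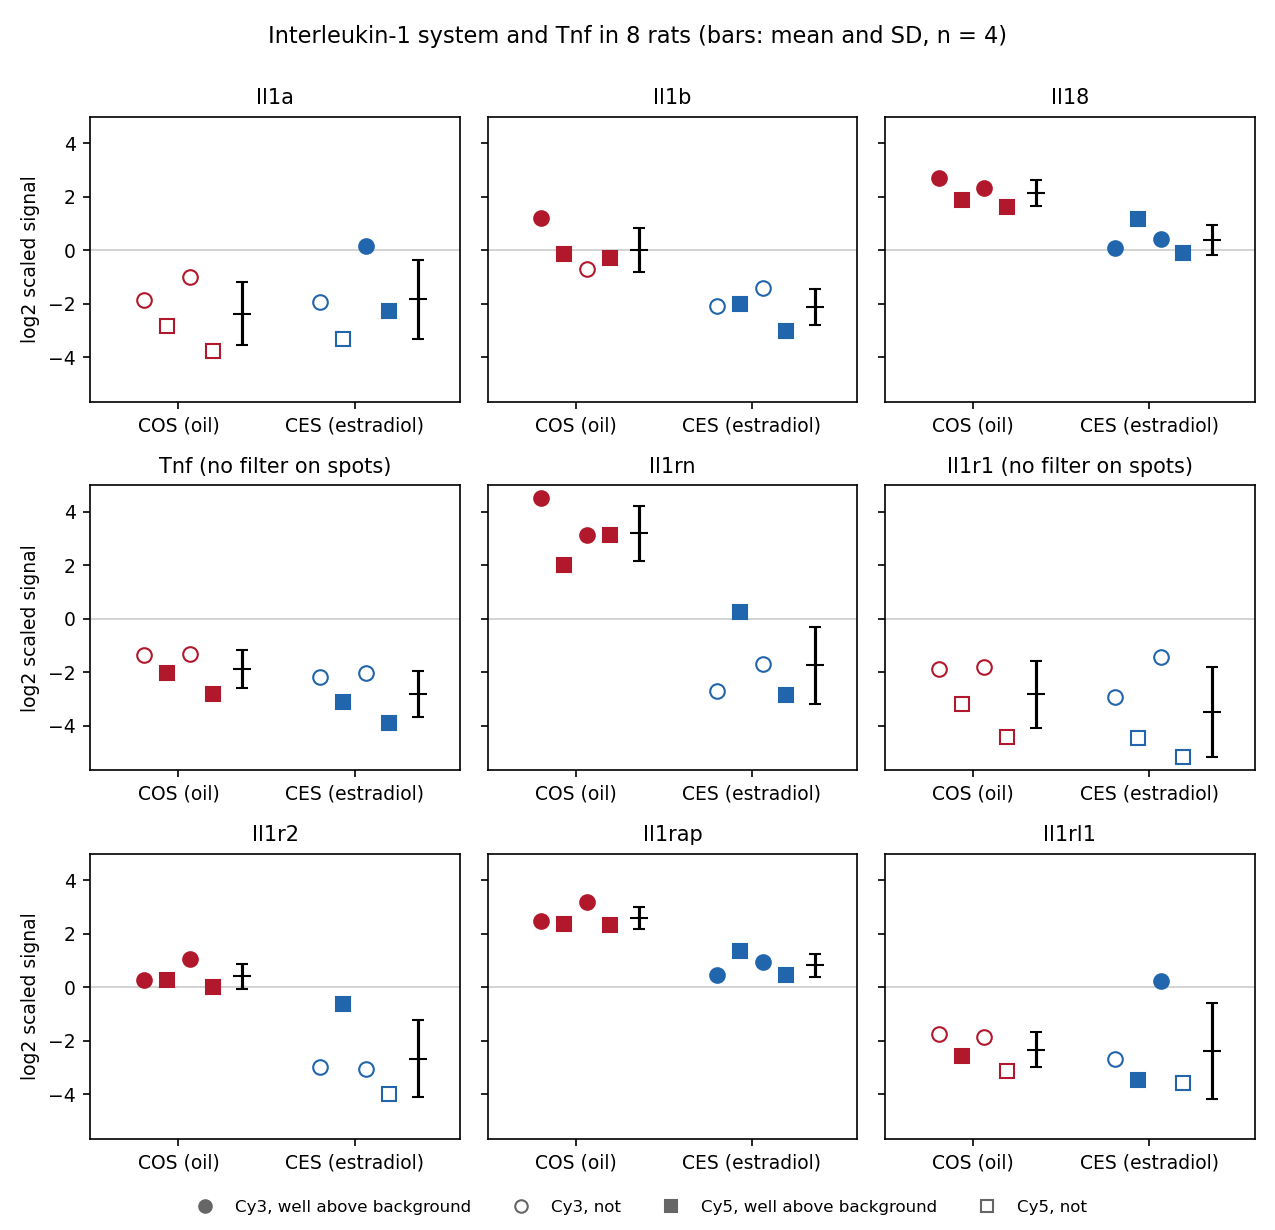
Level of each of the 9 genes in each rat, as log2 of the signal over the median of valid spots of the same channel, with COS in red and CES in blue, circles for Cy3 and squares for Cy5, and black bars for mean and SD (n = 4). Filled symbols are rats in which at least 1 spot of the gene was well above background: the groups do not overlap for Il1b, Il18, Il1rn, Il1r2 and Il1rap, and most symbols of Il1a, Il1r1 and Il1rl1 are open.

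Among the ligands, Il1b stood at 1.21, -0.14, -0.69 and -0.28 in COS rats 1 to 4 and at -2.09, -2.0, -1.42 and -3.02 in CES rats 1 to 4, on the log2 scale of the scaled signal. COS rat 1 was the highest and CES rat 4 the lowest, and the groups did not overlap. Il1b fell by 2.16 on the log2 scale (SE 0.39, n = 4 per group, limma adjusted p = 0.00518), or by 1.90 relative to all genes. No fold is given, because CES rats 1 and 3 were not well above background by either probe. This value rests on 3 of the 11 spots, those valid in every rat. Its 2 probes fitted singly gave -1.93 (SE 0.38) and -2.57 (SE 0.42), with limma adjusted p of 0.00601 and 0.00394 over all probes. The probe on 10 spots shows the measurement itself: its mean net intensity (foreground minus local background) was 617, 394, 137 and 480 in the COS rats and 50.4, 114, 58.4 and 39.2 in the CES rats. All 10 spots were well above background in COS rats 1, 2 and 4 and in CES rat 2, 1 spot in CES rat 4, and none in COS rat 3, CES rat 1 and CES rat 3. The negative control spots had a 95th percentile of net intensity between 83.8 and 112 in Cy3 and between 33.3 and 82.6 in Cy5. The Il1b spots of the Cy3 CES rats thus averaged below the upper range of the negative controls, and those of every COS rat above it.

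Il18 stood at 2.69, 1.89, 2.34 and 1.62 in the COS rats and at 0.09, 1.17, 0.41 and -0.11 in the CES rats. Every COS rat was above every CES rat, and every rat was well above background. Il18 fell by 1.74 (SE 0.31, limma adjusted p = 0.00508), 3.35-fold, or by 1.49 relative to all genes. The printed probe gave -1.88 (SE 0.33) and a second one at chr8:53927434-53927493 gave -1.43 (SE 0.28), both called over all probes.

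Il1a stood at -1.88, -2.84, -1.0 and -3.76 in COS and at -1.95, -3.32, 0.17 and -2.26 in CES. The groups overlapped, and only CES rats 3 and 4 were well above background. The difference was 0.53 (SE 0.45, limma adjusted p = 0.391), so Il1a passed no threshold. Because no COS rat was well above background, the level in COS has only an upper limit, and no fold is given. Without CES rat 3 the difference was -0.03.

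Tnf had no spot valid in every rat, and its values come from all 10 spots with no filter. It stood at -1.38, -2.03, -1.32 and -2.80 in COS and at -2.19, -3.13, -2.04 and -3.90 in CES. Within each dye, both COS rats were above both CES rats, whereas across dyes the groups overlapped. The difference was -0.93 (SE 0.27, limma adjusted p = 0.0639 over 35250 genes, of which 8.95% were called). When single rats were left out, it passed the threshold only without CES rat 2 (-1.05, limma adjusted p = 0.0360). With each other rat left out the limma adjusted p ran from 0.0646 to 0.244. In net intensity the 10 spots averaged 126, 141, 95.8 and 103 in COS and 59.5, 71.2, 49.96 and 33.2 in CES. Of these 10 spots, 10 were well above background in COS rat 2, 3 in COS rat 4, 8 in CES rat 2, 1 in CES rat 4 and none in any Cy3 rat. Where the background was corrected by normexp the difference was -0.32, and over all settings tried it ran from -1.18 to -0.17.

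**Figure D2:**
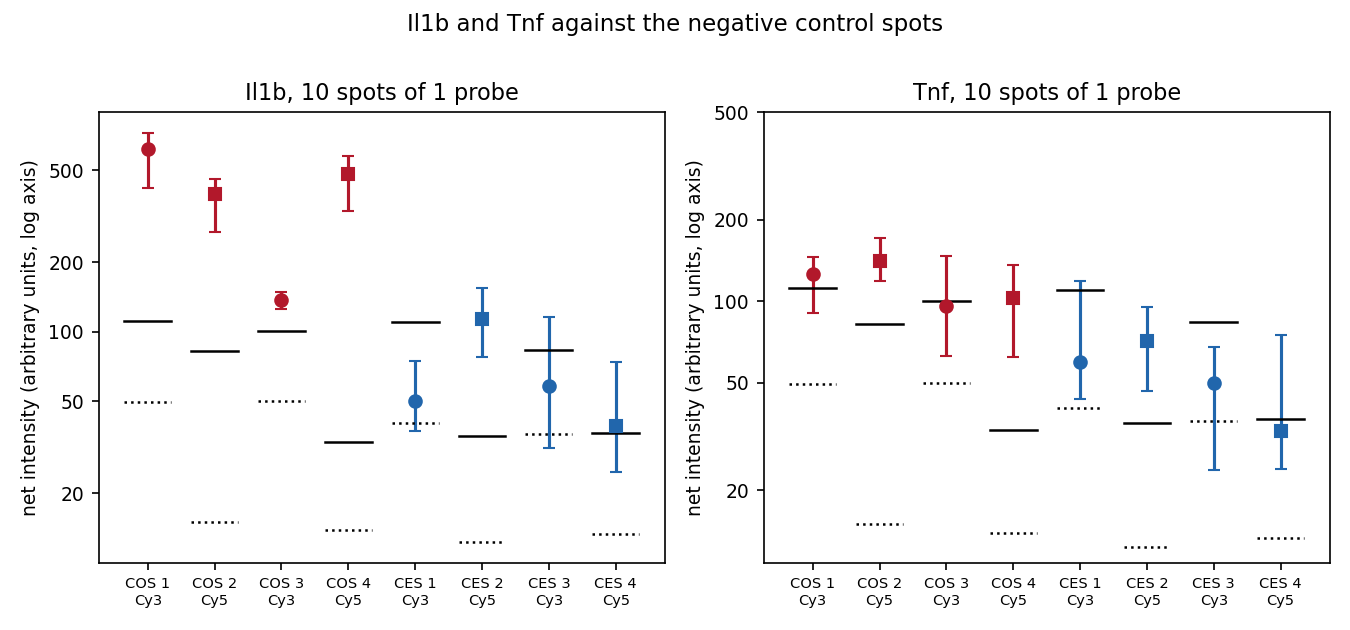
Net intensity (arbitrary units, log axis) of the 10 spots of the replicated Il1b probe and of the Tnf probe in each rat, as the mean (circle for Cy3, square for Cy5) with bars from the lowest to the highest spot. Solid and dotted black lines are the 95th percentile and the median of the 153 negative control spots of the same channel. Il1b averages above the solid line in all 4 COS rats, while Tnf in the Cy3 rats exceeds it only in COS 1.

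The antagonist Il1rn showed the largest difference of the 9. It stood at 4.51, 2.00, 3.14 and 3.14 in COS and at -2.69, 0.25, -1.68 and -2.86 in CES. COS rat 2 was the lowest of its group and CES rat 2 the highest of its own, and the groups did not overlap. Il1rn fell by 4.94 (SE 0.69, limma adjusted p = 0.00374), or by 4.69 relative to all genes. CES rats 1 and 3 were not well above background, so no fold is given, and over all settings tried the difference ran from -5.77 to -3.34. The tested value comes from 1 spot, that of the brighter probe (chr3:2613130-2613189), and no setting fitted the dimmer probe alone. The dimmer probe, whose sequence is printed above, was well above background in COS rats 1 and 4 and in no CES rat. Without the filter it stood at -0.78, -3.14, -1.13 and -2.28 in COS and at -2.79, -4.55, -2.68 and -5.22 in CES. Within each dye both COS rats were above both CES rats by this probe, but COS rat 2 was below CES rats 1 and 3. Its groups thus overlapped, near background.

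Within each rat the log2 level of Il1rn minus that of Il18 was 1.83, 0.11, 0.80 and 1.52 in COS and -2.78, -0.92, -2.09 and -2.75 in CES, with no overlap, so Il1rn differed between the groups by more than Il18 did. For Il1rn minus Il1b the mean ± SD of the 4 rats was 3.18 ± 0.73 in COS against 0.39 ± 1.29 in CES, and CES rat 2, at 2.26, lay within the COS range. These differences describe change between groups, since levels of different probes cannot be set against each other.

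Among the receptors, Il1r2, the decoy, stood at 0.25, 0.27, 1.07 and 0.02 in COS and at -2.98, -0.64, -3.08 and -4.01 in CES. All COS rats were well above background, whereas of the CES rats only CES rat 2 was, and it was also the one nearest to COS. Il1r2 fell by 3.08 (SE 0.60, limma adjusted p = 0.00628), or by 2.82 relative to all genes. Since 3 of the 4 CES rats were near background, no fold is given and the size of this difference depends on how background is treated. With normexp correction, which draws dim values together, the difference was -1.34 and still called, and without COS rat 3 it was -2.77 with a limma adjusted p of 0.0601.

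Il1rap, the accessory chain, stood at 2.49, 2.37, 3.17 and 2.31 in COS and at 0.47, 1.37, 0.96 and 0.46 in CES. It was well above background in every rat, and its spread within a group was the smallest of the 5, with an SD over 4 rats of 0.40 in COS and 0.44 in CES. Il1rap fell by 1.77 (SE 0.27, limma adjusted p = 0.00390), 3.41-fold, or by 1.52 relative to all genes. Il1rap and Il18 were the 2 genes that remained in the test under the stricter filters, a foreground of at least 3 times background or a mark of well above background in all rats, and both were called there.

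Il1r1, the receptor that signals, could not be measured: neither of its probes was well above background in any rat. No fold is given. Without the filter its difference was -0.66 (SE 0.45, limma adjusted p = 0.349), and this compares signals near background.

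Il1rl1, the IL-33 receptor also known as ST2, stood at -1.75, -2.59, -1.86 and -3.14 in COS and at -2.69, -3.49, 0.22 and -3.60 in CES by the probe of its membrane form. CES rat 3 was far above the other CES rats and was the only rat in which that probe was well above background. The difference was -0.05 (SE 0.53, limma adjusted p = 0.946). Its sign turned under several settings, and without CES rat 3 it was -0.76 with a limma adjusted p of 0.0105. Whether Il1rl1 was called thus depended on that rat. The probe of the other transcript was not valid in every rat, and 1 COS rat and 1 CES rat had it marked as detected.

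CES rat 2 was the highest CES rat for Il1rn, Il1r2, Il1rap and Il18, and CES rat 3 for Il1b. This was shared by other genes: of the 6054 genes called lower, CES rat 2 was the highest CES rat for 45.7% and CES rat 3 for 43.0%. Leaving out each rat in turn kept Il1rn between -5.77 and -4.44, Il1r2 between -3.88 and -2.42, Il1b between -2.55 and -1.81, Il1rap between -2.02 and -1.56, and Il18 between -2.10 and -1.54. Without COS rat 3, Il1r2 and Il18 (limma adjusted p = 0.0541) lost the call, and 932 genes in all were then called lower.

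**Figure D3:**
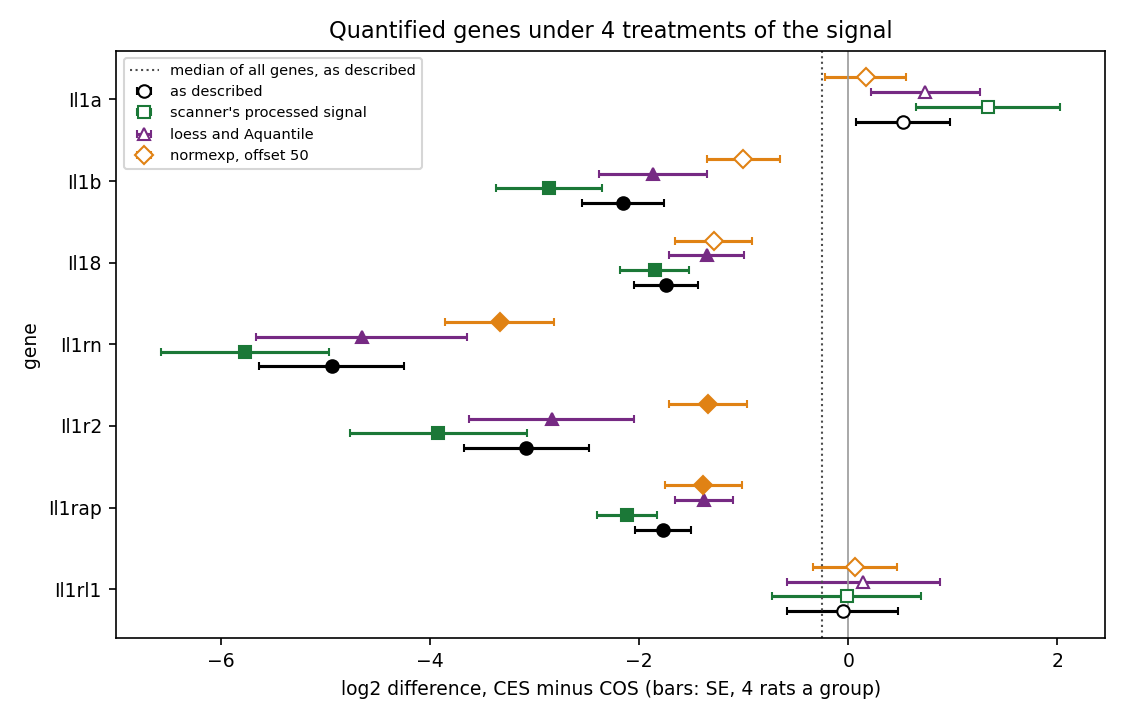
Difference CES minus COS on the log2 scale with its SE for the 7 tested genes, under the main processing (black) and 3 other treatments of the signal, with filled symbols for limma adjusted p under 0.05. Il1b, Il18, Il1rn, Il1r2 and Il1rap lie below 0 under all 4, normexp draws each of them toward 0 and leaves Il1b and Il18 uncalled, and Il1rl1 lies about 0.

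By likeness of pattern over the 8 rats, the closest gene to Il1rn was Npc1 (Pearson r = 0.998), a cholesterol transporter of lysosomes, followed by Gja5 (r = 0.994), a connexin of vessel walls, and Nr1h3 (r = 0.990), the nuclear receptor LXRα. The closest to Il1b was Ppic (r = 0.989), a cyclophilin, and the next on the array carry no gene symbol. These are descriptions over 8 rats that share arrays and dyes, chosen out of 21372 genes. The size of the difference was not alike: Npc1 differed by -0.70 (SE 0.17) and Nr1h3 by -1.69 (SE 0.30), against -4.94 for Il1rn.

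The rest of the pathway was taken from 3 lists, and of 92 listed genes 59 were tested, of which 42 fell and 0 rose (71.2% lower, against 28.3% of all genes). The median difference of the 59 was -1.20. In the list of the IL-1 and IL-18 pathway, 11 of 21 tested genes fell and 10 passed no threshold, with a median of -0.60. In the TNF pathway 15 of 17 fell, with a median of -1.23, and among known target genes of IL-1 and TNF 16 of 21 fell, with a median of -1.37.

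In the IL-1 and IL-18 pathway the largest called differences were those of Sigirr, an IL-1 receptor relative that dampens signalling, at -2.07 (SE 0.35, limma adjusted p = 0.00462), Pycard, the inflammasome adaptor, at -1.70 (SE 0.40), Myd88, the adaptor of IL-1 receptors, at -1.69 (SE 0.34), and Casp1, which encodes caspase-1, at -1.62 (SE 0.34). Casp1 stood at 1.67, 1.03, 1.67 and 1.07 in COS and at -0.68, 0.70, -0.06 and -0.97 in CES, with no overlap. Sigirr and Myd88 did not overlap either, whereas for Pycard CES rat 2 (1.95) was above COS rat 2 (1.79). Il18bp, a soluble protein that binds IL-18, fell by 1.27 (SE 0.27, limma adjusted p = 0.00886). Of the CES rats, 2 were well above background for Myd88 and 3 for Il18bp, so the sizes of these 2 differences rest partly on values near background. Il33, the ligand of Il1rl1, fell by 1.05 (SE 0.17, limma adjusted p = 0.00417), with COS rats between 2.00 and 2.75 and CES rats between 1.14 and 1.58. The called genes of this list thus include inhibitors as well as mediators of the pathway.

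In the TNF pathway both receptors fell, with differences of -1.999 (SE 0.36, limma adjusted p = 0.00518) for Tnfrsf1a and -1.55 (SE 0.26, limma adjusted p = 0.00460) for Tnfrsf1b. Tnfrsf1a stood at 3.68, 3.32, 3.85 and 3.13 in COS and at 0.99, 2.61, 1.51 and 0.88 in CES, well above background in all rats, unlike Tnf itself. The other genes named from this list were Ripk3, a kinase of necroptosis, at -3.24 (SE 0.62, limma adjusted p = 0.00603), Birc3, a ubiquitin ligase of the TNF receptor complex, at -2.12 (SE 0.33), and Litaf, an endosomal membrane protein named for its induction by endotoxin, at -1.80 (SE 0.29). Ripk3, Birc3 and Tnfrsf1b were well above background in 2 of the 4 CES rats.

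Of the targets, Ccl2, a chemokine that attracts monocytes, stood at 6.46, 7.08, 5.96 and 6.16 in COS and at -2.05, 4.32, -0.63 and -3.25 in CES. It fell by 6.82 (SE 1.26, limma adjusted p = 0.00547), with an SD of 3.33 (n = 4) in CES, where CES rat 2 stood far above the others. Cxcl1 and Cxcl10, chemokines for neutrophils and T cells, fell as well, with differences of -4.35 (SE 0.75) and -4.05 (SE 0.82). Of the CES rats, 3 were well above background for Ccl2, 1 for Cxcl1 and 2 for Cxcl10, against all 4 COS rats for each, so the sizes of these differences rest partly on values near background. Lcn2, an acute-phase protein, fell by 3.82 (SE 0.94, limma adjusted p = 0.0143), and Icam1, an adhesion molecule of endothelium and leukocytes, fell by 2.99 (SE 0.40, limma adjusted p = 0.00362). Ptgs2, which encodes cyclooxygenase-2, fell by 1.89 (SE 0.39), and Nfkbia, the NF-κB inhibitor that NF-κB itself induces, fell by 1.34 (SE 0.21). For all of these except Lcn2 the groups did not overlap.

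**Figure D4:**
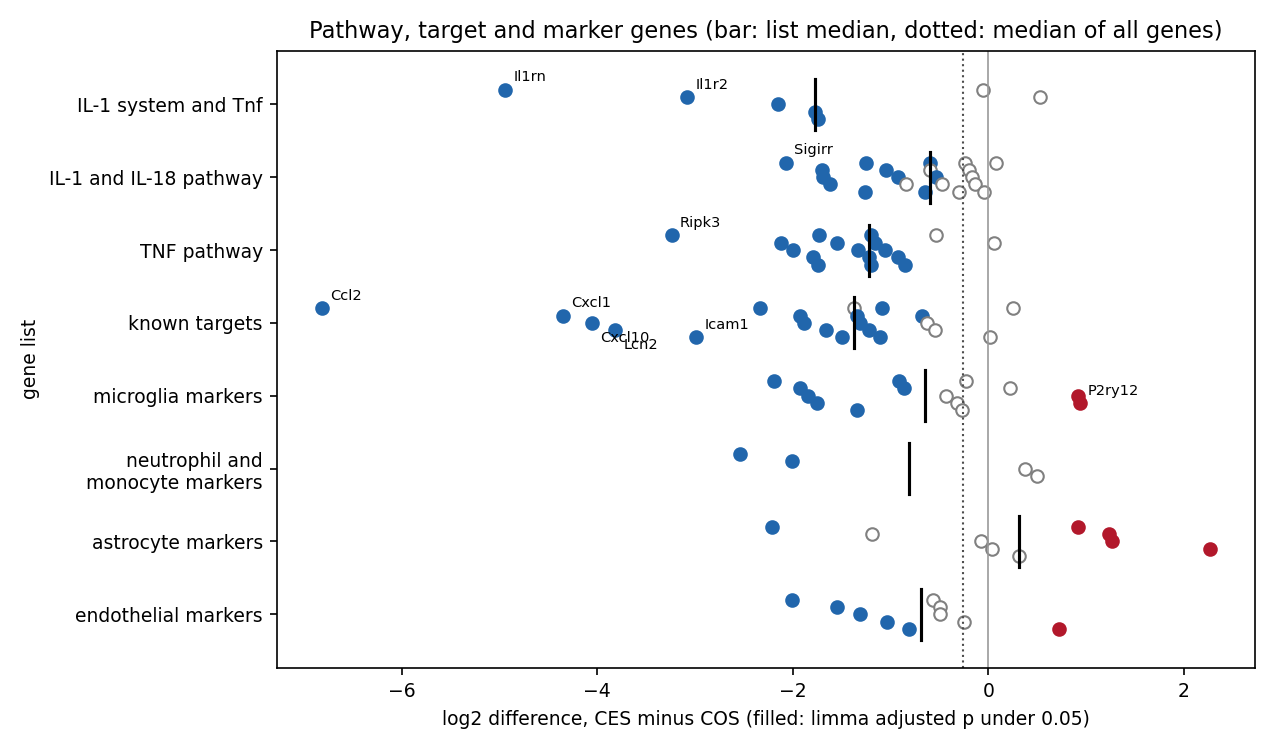
Difference CES minus COS (log2) of every tested gene in the lists drawn, 1 point per gene, filled where limma adjusted p was under 0.05 (blue lower, red higher in CES), with a black bar for the median of each list and a dotted line for the median of all genes, -0.25. Drawn are the IL-1 system, the pathway and target lists, and the markers of microglia, neutrophils and monocytes, astrocytes and endothelium. The other marker lists are not drawn. The pathway and target genes that passed the test all lie to the left of 0, and the marker lists below them hold calls on both sides or few calls.

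Over the 8 lists of cell type markers, 18 of 61 tested genes fell (29.5%, against 28.3% of all genes) and 10 rose (16.4%, against 5.79%). Of 14 tested microglia markers 7 fell and 2 rose. Their summed scaled signal ran from 292 to 407 in COS and from 128 to 232 in CES. A two-sided exact permutation test gave p = 0.0286, the smallest that 4 against 4 allows, and 0.114 adjusted over 8 lists. It shuffled single rats, although each array holds 2 rats of the same group, so sharing of arrays and dye were not taken into account. Aif1, the common microglia marker, differed by -0.32 (SE 0.19, limma adjusted p = 0.212), and P2ry12, a receptor of resting microglia, rose by 0.93 (SE 0.20, limma adjusted p = 0.00831). Siglech was not well above background in any rat. Of 14 listed neutrophil and monocyte markers 4 were tested and 2 fell, with a sum of 60.8 to 113 in COS and 8.83 to 27.5 in CES (exact permutation p = 0.0286, 0.114 adjusted). Lyz2, which microglia also express, made up most of that sum, at a mean log2 level of 6.27 in COS and 3.73 in CES. S100a8, abundant in neutrophils, was detected in 3 COS rats and 1 CES rat, and Mpo in no rat. The other marker lists gave exact permutation p of 0.0571 (endothelial) or more. The part of these cells in the differences of the cytokine genes was not tested.

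Of 9 astrocyte markers 1 fell and 4 rose, with sums of 239 to 275 in COS and 228 to 387 in CES, and Gfap differed by -1.19 (SE 0.44, limma adjusted p = 0.0618). Of 10 endothelial markers 5 fell and 1 rose, with sums of 55.3 to 84.8 in COS and 27.3 to 58.5 in CES, and Cldn5 differed by -0.25 (SE 0.17, limma adjusted p = 0.276). Among 8 oligodendrocyte markers 1 rose, and among 7 markers of granule neurons 3 fell and 2 rose. Prox1, the defining factor of dentate granule cells, was not well above background in any rat, whereas Calb1 and C1ql2, other genes of these cells named after their values were seen, were in all 8. Choroid plexus markers gave no call among 7, yet their sums ran from 13.9 to 637 in COS and from 17.4 to 203 in CES, and Ttr differed by 0.52 (SE 0.99, limma adjusted p = 0.713). The 2 tested lymphocyte markers passed no threshold.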

How the data were processed

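RNA of 8 rats was measured on 4 Agilent arrays of 1 slide, each holding 2 rats of the same group, 1 per dye, so array is nested in group and dye is balanced. Groups, numbers and dyes come from the sample records. As deposited, the scanner files give an intensity per spot and one for its local background, extracted with Agilent Feature Extraction 10.7.3.1 per the labels, plus a processed intensity. The authors also deposited log2 values, which equal log2 of background-subtracted median signal minus a constant per channel. The number of arrays limits the precision, with a median standard error of 0.20 (log2) over all genes. No spot was saturated, and the spots valid per rat numbered 32381 to 38553 in COS and 30690 to 35352 in CES.

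Following the study's methods, a spot was valid at a mean foreground of at least 2 times the background median. Net signal was divided by the median of valid spots of the same channel, averaged over those spots of a gene that passed in every rat, then converted to log2 without a pseudocount. Spots marked as outliers were kept. Probes were named through RefSeq accessions (17512 of 41012) and otherwise by the array's names, and the 9 genes by the array's names. Outside the filter, values were floored at 0.005.

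CES and COS were compared by limma 3.58.1 in R 4.3.3, with dye as a fixed term, array as a random block (duplicateCorrelation, statmod 1.5.0) and Benjamini-Hochberg adjustment at 0.05. The estimated array correlation was -0.00653. The fit was tested on simulated data with 200 changed genes among 21372. It recovered 78% of log2 changes of 2 and 9% of changes of 1, with 7 false among 94 calls. In the data 34.1% of genes were called, a far larger share, and the adjustment depends on that share. The simulated noise was taken around group means and so includes dye differences. These rates therefore need not hold for the data. Tables and plots were made in Python 3.11.15 with numpy 2.4.6, pandas 2.3.3 and matplotlib 3.10.9. Deviations of same-numbered rats of both groups from their group means correlated at 0.209 to 0.336. Once dye, which the numbers share, was removed, they correlated at -0.0648 for rats 1 and 3 and at -0.0389 for rats 2 and 4. Rats 1 and 3 of a group share a dye, as do rats 2 and 4, so their deviations then mirror each other by construction. These correlations therefore cannot show whether same-numbered rats were paired. The pairing comes from replicate numbers in the records.

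The members and gene lists, and the tests, were chosen with earlier results of these data known. Named genes are the 9, the 4 largest called per pathway or target list, 10 fixed pathway genes, 8 fixed markers and the 3 most alike in pattern to Il1b and to Il1rn. Alternatives covered background, normalization, filters, outliers, terms, probes, test, the log2 table and leaving out each rat.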

Additional observations from a re-analysis of the deposited data

Results flagged for a closer look

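Among 64 groups of 4 rats examined for a value far from the others (the 9 genes and the named genes with values in every rat), 2 stood out by Dixon's criterion, and chance flags about 1 in 20. Lcn2 in COS rat 4 was at 3.58 on the log2 scale, below the other COS rats at 4.44 to 4.59. Nfkbia in COS rat 3 was at 4.43, above the other COS rats at 3.85 to 3.89. None of the 9 genes of the IL-1 system and Tnf was flagged in either group.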

How the results depend on the processing

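Il1rn, Il1r2, Il1b, Il1rap and Il18 kept their direction under every alternative run. The number called lower, 5, was 3 with normexp (Il1b at -1.0, limma adjusted p = 0.131, and Il18 at -1.29, 0.0506, lost). It was 2 of 2 tested at a foreground of 3 times background or when every rat had to be well above background. It was 3 to 6 without single rats, 6 because Il1rl1 joined without CES rat 3 and 3 without COS rat 3. By the methods' t-test, adjusted over all genes here and below, it was 0 (5 at unadjusted p under 0.05). The study itself corrected that test only for redundant spots and added a fold cut-off for each gene, which was not applied here. For pathway and target genes the 42 lower became 12 with normexp, 27 with loess and 0 by the t-test so adjusted (40 unadjusted). They numbered 16 (without COS rat 3) to 47 without single rats. Over all genes the 6054 lower and 1238 higher became 454 and 123 with normexp, 1896 and 3045 with loess, and 2226 and 3059 with quantile normalization. They were 2747 and 408 with no filter, 1720 and 3352 scaled over spots valid in all rats, and 1936 and 3285 in the log2 table. The t-test so adjusted gave 0 and 0 (5342 and 772 unadjusted). Runs without single rats gave 932 to 7029 and 262 to 1860. The cause was not tested.

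Il1rl1, at -0.05, turned to 0.20 once the all-gene median was subtracted, 0.064 with normexp, 0.14 with loess, 0.28 with quantile normalization, 0.35 scaled over spots valid in all rats and 0.31 in the log2 table, and ran from -0.76 to 0.38 without single rats. Il1a ran from -0.027 to 0.91 without single rats. With the replicate number as a block, the same 5 genes were called (Il1b limma adjusted p = 0.0113, Il1rn 0.00859), with 6147 lower and 1077 higher over all genes. The block changed no other call among the 7 tested genes, and it was not run for Il1r1 and Tnf. Marker genes called lower, 18, and higher, 10, ran from 2 to 23 and from 1 to 11 without single rats, and 4 were higher with no filter. The log2 ratio of summed choroid plexus markers, -0.62, ran from -1.01 to 2.02 without single rats, and that of lymphocyte markers, 0.07, from -0.15 to 0.17, and was -0.52 with no filter. Dim signal limits Il1a, Il1r1, Il1rl1 and Tnf.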

Other observations

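Of 11 target genes of IL-1 and TNF on the array with no spot valid in every rat, 6 (Ccl3, Ccl4, Ccl7, Cxcl2, Sele and Mmp3, named after their values were seen) were well above background in all 4 COS rats and in 1 CES rat, and for all 6 that rat was CES rat 2. Among all 13878 gene names outside the test, 51 (0.367%) had this pattern. Ccl20 was detected in 3 COS rats and 0 CES rats, Nos2 in 1 rat of each group, and Csf2, Csf3 and Selp in no rat. The 6 genes encode chemokines, an endothelial selectin and a matrix protease, and the count of lower target genes leaves them out.

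The microglia list split by gene, with 7 of 14 tested markers lower and 2 higher. Both that rose are named here, but only some of those that fell. P2ry12 rose by 0.93, and P2ry13, a related receptor, rose by 0.92 (SE 0.21, limma adjusted p = 0.0115), although P2ry13 was detected in 2 CES rats and 0 COS rats. Cd68, a lysosomal protein of phagocytes, fell by 2.19 (SE 0.38, limma adjusted p = 0.00487), and Tyrobp, a signalling adaptor of myeloid cells, fell by 1.85 (SE 0.34, limma adjusted p = 0.00551). Trem2, a receptor that signals through Tyrobp, differed by -0.27 (SE 0.19, limma adjusted p = 0.311). P2ry13, Cd68, Tyrobp and Trem2 were named after their values were seen.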
